A study of Homo sapiens with 6 samples.

Results

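The genes described here encode the subunits of cytochrome oxidase, the last complex of the respiratory chain, and of ATP synthase, the enzyme that makes ATP from the proton gradient. Members were the rows whose symbol starts with COX4, COX5, COX6, COX7, COX8, ATP5, MT-CO or MT-ATP, which gave 37 of the 15761 genes in the table. Of these, 32 lie in the nuclear genome and 5 in mitochondrial DNA (mtDNA). By role they are 12 nuclear-encoded cytochrome oxidase subunits, 17 nuclear-encoded ATP synthase subunits, the 5 mtDNA-encoded subunits, and 3 genes that match the symbols but are not structural subunits (COX7A2L, ATP5S and ATP5MGL).

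RNA was sequenced from SK-MES-1 cells, an established human lung squamous carcinoma line with the genotype label WT. In the exosome group the cells were cultured for 72 h with 20 µg/ml of exosomes, the small vesicles that cells release, taken from lung fibroblasts of idiopathic pulmonary fibrosis. The control group had the same cells without exosomes. Each group had 3 libraries of 1 cell line. Nothing in the labels tells whether they came from separate cultures, and the p-values reflect library-to-library spread only, which may be technical.

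Both complexes sit in the inner mitochondrial membrane and are built from 2 genomes: the catalytic core of cytochrome oxidase and a pair of ATP synthase membrane subunits come from mtDNA, and every other subunit is made in the cytosol and imported. Cytochrome oxidase passes electrons from cytochrome c to oxygen and pumps protons. In ATP synthase, protons turn a ring of c subunits in the membrane, the ring turns the central stalk, and the F1 head makes ATP while the peripheral stalk holds it still. The mtDNA-encoded messages are cut from long transcripts of the whole mitochondrial genome, whereas each nuclear subunit gene has its own promoter.

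The libraries held 13168627, 13038688 and 13334508 counts in the exosome group and 12721826, 11346639 and 12924251 counts in the control group. Control library 3 stood apart from the other controls: the chi-square per gene was 16.2 and 12.1 against control libraries 1 and 2, and 2.31 between libraries 1 and 2. Exosome library 3 also stood off, at 9.71 and 7.41 against exosome libraries 1 and 2, beside 3.18 between these. Over all genes the fold change followed GC content, with a median log2 fold change from -0.39 in the lowest of 10 GC classes to 0.49 in the highest, so each member is also given with the GC and length trend removed where that changes its call. Squamous markers were mostly low: KRT5, KRT14 and KRT6A reached at most 0.444 CPM in any library. The 8 listed markers in the table summed to 115.3 to 151.6 CPM in exosome libraries and 64.8 to 85.7 CPM in control libraries, most of it SFN. Of the 5 tested, 1 rose and 2 fell (edgeR, adjusted p under 0.05), beside 25.6% and 26.1% of all genes. SFN had a log2 fold change of 0.94, and KRT17 and TRIM29 had -1.71 and -1.45, at 4.45 CPM or less. The 6 fibroblast markers in the table summed to 7.76 to 9.04 CPM in exosome libraries and 11.4 to 12.1 CPM in control libraries. Most of it was PDGFRB (6.17 to 7.99 CPM) and COL6A3 (1.11 to 4.02 CPM), with COL3A1, PDGFRA, FAP and THY1 near 0. Of the 2 tested, 0 rose and 1 fell, beside 25.6% and 26.1% of all genes. COL6A3 fell by 1.30 (adjusted p = 8.13e-04). PDGFRB passed with the GC and length trend removed (-0.43, adjusted p = 0.0423) but not in the main fit (-0.27). The part of these markers in the results was not tested.

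Transcript levels of different genes were set side by side per length, on the authors' FPKM scale. Of the mtDNA-encoded messages 4 were far above the nuclear ones, and MT-ATP8 averaged 9.27 FPKM. MT-CO1, for the catalytic subunit, averaged 12196 ± 1490 FPKM in exosome libraries and 15299 ± 2460 FPKM in control libraries (SD, n = 3 each). MT-CO2, which receives electrons from cytochrome c, came next, and then MT-CO3 and MT-ATP6, each at 3658 FPKM or more in every library. MT-CO1 exceeded MT-CO2 in every library, by 1.09 to 1.30 times in FPKM.

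The highest nuclear member was ATP5F1B, the catalytic beta subunit of F1, at 680 ± 22.2 FPKM in exosome libraries and 637 ± 28.6 FPKM in control libraries (SD, n = 3 each). It stood above every other nuclear member in each library. ATP5PD, ATP5F1D, ATP5F1C, COX5B and COX4I1 followed at means of 111 to 88.2 FPKM over all libraries and their ranges over the 6 libraries overlapped. The level thus differed between subunits of 1 complex: ATP5PO, for the OSCP subunit at the top of the peripheral stalk, averaged 5.60 FPKM, ATP5MG, for membrane subunit g, 4.11 FPKM, and ATP5ME, for membrane subunit e, 2.40 FPKM. The lowest members were COX7A1, the heart and muscle form of subunit 7A, at 0.457 FPKM, ATP5MGL, a gene resembling ATP5MG, at 0.265 FPKM, and COX6B2, the testis form of subunit 6B, at 0.256 FPKM. In 2 isoform pairs the widely expressed form was thus the main one: COX6B1 averaged 44.2 FPKM and COX7A2 34.9 FPKM. Several low members share exon bases with another gene, such as ATP5ME with 61.6% of its exon bases shared with MYL5 on the opposite strand. ATP5PO and ATP5MG share exon bases with a protein-coding gene on the same strand. How reads over shared bases were counted, and whether by strand, is not stated in the sources used here, so such levels are uncertain.

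**Figure D1:**
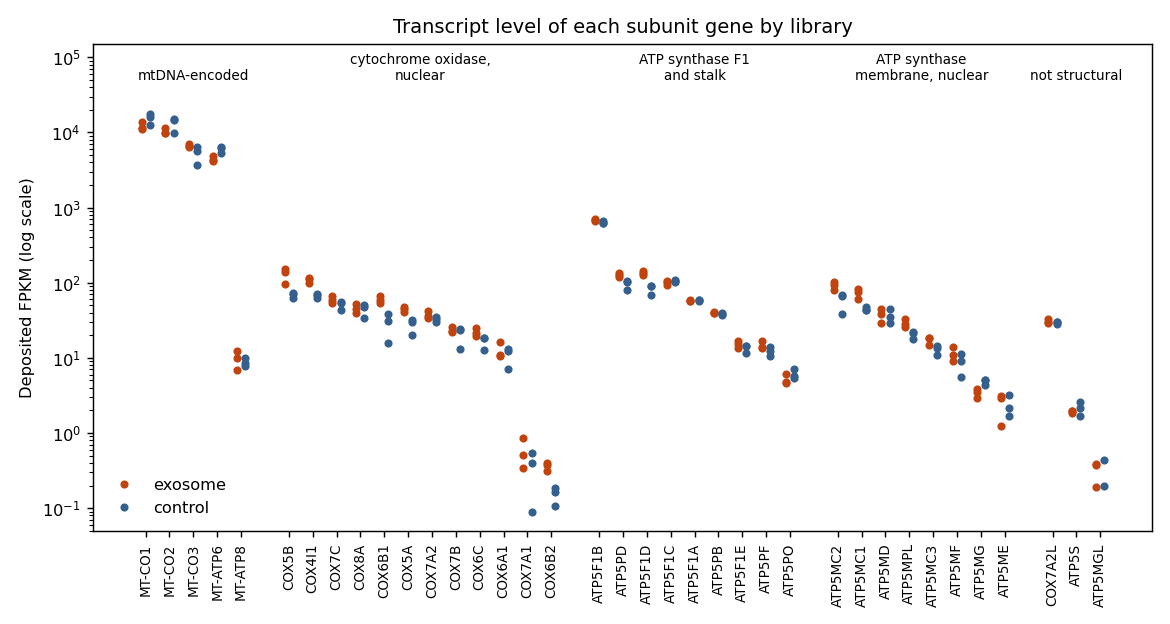
Deposited FPKM of each member on a log axis, 1 point a library, exosome left of control within each gene, grouped by role. MT-CO1, MT-CO2, MT-CO3 and MT-ATP6 sit at 3658 FPKM or more, ATP5F1B is the highest nuclear member, and 1 control library with 0 for ATP5MGL is not drawn.

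The exosome comparison sets nuclear-encoded subunits beside mtDNA-encoded ones. Among the nuclear-encoded members 10 rose and 1 fell of 30 tested, and among the mtDNA-encoded members 0 rose and 2 fell of 5 tested (edgeR, adjusted p under 0.05). The median log2 fold change was 0.14 for the nuclear-encoded members and -0.41 for the mtDNA-encoded members, beside -0.0042 for all 12449 genes tested. Many genes passed the same test: 25.6% of all genes were called higher and 26.1% lower. With the GC and length trend removed, 10 nuclear-encoded members were higher and 4 lower, beside 18.2% and 17.3% of all genes. The difference between the nuclear and mtDNA groups was not tested. Each library left out in turn moved the nuclear median, between 0.0566 without control library 3 and 0.29 without control library 2. With library totals in place of TMM scaling, 60.4% of all calls were higher, against 49.6% here, and the nuclear-encoded members then gave 11 higher and 1 lower. COX7A1 and ATP5MGL had 0 to 10 counts a library, did not pass the filter on low counts, and were not tested.

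The summed nuclear-encoded members reached 3387, 3541 and 3234 CPM in exosome libraries, against 3159, 3124 and 2891 CPM in control libraries (CPM, read counts scaled to the library total and the TMM factor). The summed mtDNA-encoded members reached 31319, 30798 and 37457 CPM in exosome libraries, against 48300, 44616 and 33088 CPM in control libraries. The nuclear sums did not overlap between the groups. The median deviation of the nuclear-encoded members from their gene means did overlap, with exosome library 3 at -0.0171 and control libraries 1 and 2 at -0.0065 (log2). The mtDNA sums overlapped, because exosome library 3, the highest of its group, lay above control library 3, the lowest of its group. The mtDNA-encoded sum was 9.25, 8.70 and 11.6 times the nuclear-encoded sum in exosome libraries, against 15.3, 14.3 and 11.4 times in control libraries. On the log2 scale this ratio differed by -0.47 (exosome minus control), and by -0.38 without MT-CO1. It differed by -0.60 without control library 3, and likewise by -0.60 without exosome library 3. Leaving out any other library made the difference smaller. It was -0.39 without control library 1 or exosome library 2, and -0.44 without control library 2 or exosome library 1. The ratio is given without a test. In bulk RNA, fewer cells of a type and less RNA per cell cannot be told apart, and the same holds for fewer mitochondrial genomes and less message from each.

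The mtDNA-encoded members were uneven among themselves. The annotation names nuclear pseudogene copies of each, 45 for MT-CO1, 36 for MT-CO3, 29 for MT-CO2 and 25 for MT-ATP6, and how reads that match both were counted is not known. MT-ATP6, for subunit a, which carries the proton path beside the c ring, had 2848, 2734 and 3219 CPM in exosome libraries, against 4570, 4309 and 3708 CPM in control libraries. All exosome libraries lay below all controls, and MT-ATP6 fell by 0.52 on the log2 scale (SE 0.09, adjusted p = 4.95e-05). That call held in every alternative run, with adjusted p up to 8.97e-04. It was the only mtDNA-encoded member without overlap, beside 30.2% of all genes with every exosome library below every control.

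MT-CO1 had 17056, 16688 and 21190 CPM in exosome libraries, against 27781, 25434 and 19727 CPM in control libraries. Exosome library 3 exceeded control library 3, so the groups overlapped, and MT-CO1 fell by 0.41 (SE 0.12, adjusted p = 0.0126). Without exosome library 1 the adjusted p was 0.0677, and without control library 3 MT-CO1 fell by 0.52 (adjusted p = 7.34e-06).

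MT-CO2 had 6497, 6505 and 7692 CPM in exosome libraries, against 10754, 10312 and 6732 CPM in control libraries. Control libraries 1 and 2 stood above all exosome libraries, and control library 3 lay within the exosome range. The log2 fold change of -0.43 did not pass (SE 0.18, adjusted p = 0.0887). It passed without control library 3 (-0.60, adjusted p = 2.02e-07) and with the GC and length trend removed (-0.60, adjusted p = 0.00615). Either way, 3 of the 5 mtDNA-encoded members were then lower, beside 23.3% of all genes without that library and 17.3% with the trend removed.

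MT-CO3, the remaining core subunit of cytochrome oxidase, had 4916, 4869 and 5354 CPM in exosome libraries, against 5194, 4558 and 2920 CPM in control libraries. Its log2 fold change was 0.26 (95% interval -0.27 to 0.79, adjusted p = 0.366), and 0.0639 without control library 3 or 0.0781 with the trend removed. It thus stood apart from its neighbour MT-ATP6: MT-CO3 had 1.73, 1.78 and 1.66 counts for each MT-ATP6 count in exosome libraries, against 1.14, 1.06 and 0.788 in control libraries. Every exosome library lay above every control in this ratio, which was looked at after the values were seen. With 3 libraries a group an exact two-sided permutation test cannot fall below 0.1, so the ratio is a description. MT-CO1 over MT-CO2 served as a comparison and overlapped between the groups, with 2.63, 2.57 and 2.76 in exosome libraries and 2.58, 2.47 and 2.93 in control libraries. The separation was not limited to the pair with MT-ATP6. MT-CO3 over MT-CO1 was 0.288, 0.292 and 0.253 in exosome libraries and 0.187, 0.179 and 0.148 in control libraries, without overlap. MT-ATP6 over MT-CO1 overlapped between the groups.

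MT-ATP8, for a small subunit beside subunit a, had only 19 to 34 counts a library. It gave 2.50, 2.0 and 1.41 CPM in exosome libraries, against 2.13, 1.82 and 1.66 CPM in control libraries, with a log2 fold change of 0.08 (95% interval -0.58 to 0.73, adjusted p = 0.858). The gene shares its end with the start of MT-ATP6 on 1 message, so reads there belong to both, and the sources used here do not state how such reads were counted. The stretch printed here is where a read cannot be given to 1 of the 2 genes. It is chrM:8527-8572 on GRCh38, plus strand, with the start codon of MT-ATP6 in capitals.
MT-ATP8 and MT-ATP6: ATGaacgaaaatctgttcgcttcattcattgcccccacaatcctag
These 46 bases are 22.2% of the annotated length of MT-ATP8.

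**Figure D2:**
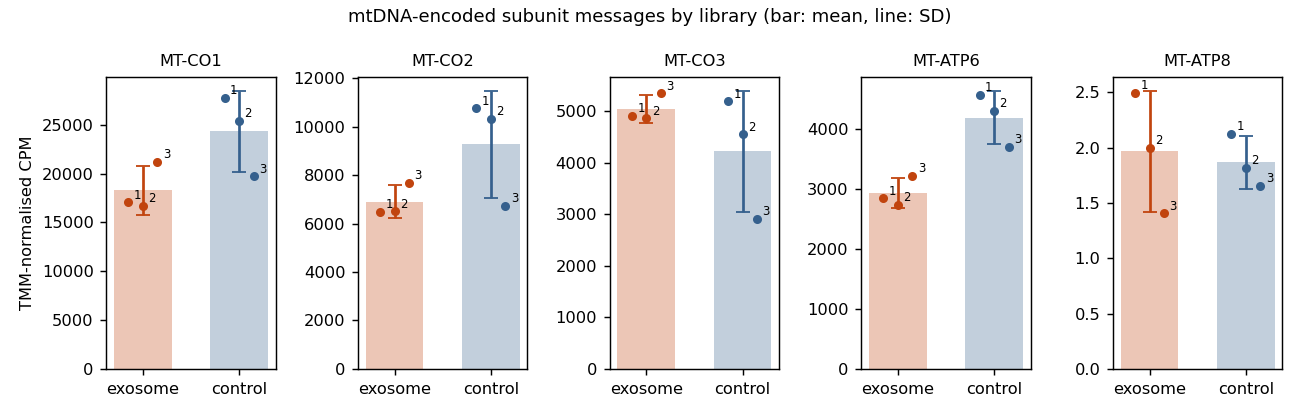
TMM-normalised CPM of the 5 mtDNA-encoded members in each library, exosome left of control; numbers mark the libraries, bars the mean and lines the SD (n = 3 each). The groups separate for MT-ATP6 alone, and control library 3 is the lowest control in every panel.

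Of the other mtDNA-encoded messages, those of complex I and cytochrome b, 0 of 8 rose and 5 fell, beside 25.6% and 26.1% of all genes, with a median log2 fold change of -0.49. MT-ND4L had 549, 596 and 568 CPM in exosome libraries, against 1253, 1349 and 1263 CPM in control libraries, and fell by 1.17 (SE 0.08, adjusted p = 1.06e-10). MT-ND6, the one protein message on the opposite mtDNA strand, fell by 1.02, MT-ND5 by 0.64 and MT-ND4 by 0.54. The sources used here do not state the use of strand or how reads over adjoining mtDNA genes were counted. The counts of MT-ND6 and MT-ND4L are uncertain to that extent. MT-ND4 did not pass without exosome library 1 or 3, with adjusted p up to 0.0697. With the GC and length trend removed 7 fell, beside 17.3% of all genes, and without control library 3 all 8 fell, beside 23.3%. All mtDNA-encoded rows together made up 6.04%, 5.98% and 7.0% of counts in exosome libraries, against 9.18%, 8.56% and 6.45% in control libraries.

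Among the nuclear-encoded cytochrome oxidase subunits, 5 of 11 tested rose and 0 fell, beside 25.6% and 26.1% of all genes. Their median log2 fold change was 0.32, and 0.17 without control library 3. In 6 of the 11 every exosome library lay above every control, beside 29.2% of all genes.  With the GC and length trend removed 5 rose and 1 fell, beside 18.2% and 17.3% of all genes.

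COX4I1, the main form of the regulatory subunit 4, had 193, 198 and 174 CPM in exosome libraries, against 130, 126 and 114 CPM in control libraries. The groups were well apart, and COX4I1 rose 1.53-fold (log2 0.61, SE 0.08, adjusted p = 3.27e-06). The rise held in every alternative run, with adjusted p up to 4.77e-05.

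COX5B, the zinc-binding subunit on the matrix side, had 103, 96.0 and 67.3 CPM in exosome libraries, against 52.7, 53.2 and 45.8 CPM in control libraries. Exosome library 3 was the lowest of its group and still above all controls, and COX5B rose 1.76-fold (log2 0.81, SE 0.14, adjusted p = 2.74e-04). After removal of the trend the log2 fold change was 0.42 (adjusted p = 0.00255). COX5A, the other matrix-side subunit, had 61.2, 63.7 and 56.7 CPM in exosome libraries, against 47.2, 43.9 and 28.8 CPM in control libraries, and rose by 0.60 on the log2 scale (SE 0.14, adjusted p = 0.00307). Control library 3 was its lowest value, and without it COX5A rose by 0.42 (adjusted p = 4.21e-04).

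COX6B1, the subunit on the outer face where cytochrome c docks, had 53.9, 59.8 and 50.3 CPM in exosome libraries, against 37.4, 29.9 and 15.1 CPM in control libraries. The groups did not overlap, but the controls spread widely, and the log2 fold change of 1.0 did not pass (SE 0.33, adjusted p = 0.0598). Without control library 3 COX6B1 rose by 0.71 (adjusted p = 2.53e-06), and with library totals only it passed too (1.08, adjusted p = 0.0371), as it did in DESeq2 (adjusted p = 0.0185). It did not pass with the GC and length trend removed (0.55, adjusted p = 0.124) and had adjusted p up to 0.173 with 1 library left out. Its testis form COX6B2 passed at 4 to 15 counts a library, with 1.10, 1.03 and 0.889 CPM in exosome libraries, against 0.490, 0.545 and 0.315 CPM in control libraries (log2 1.16, SE 0.48, adjusted p = 0.0461). That call was lost with the GC and length trend removed (0.77, adjusted p = 0.215) and when any 1 library was left out, with adjusted p up to 0.149, and 30.9% of its exon bases lie in another gene as well.

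COX6C, a small membrane subunit, rose by 0.32 (SE 0.13, adjusted p = 0.0494), with 48.3, 55.6 and 45.3 CPM in exosome libraries, against 45.3, 43.9 and 30.2 CPM in control libraries. It lost its call without control library 3 (0.17, adjusted p = 0.163) and without each exosome library in turn, with adjusted p up to 0.187. The genes of 4 further small subunits, COX6A1, COX7A2, COX7B and COX7C, had log2 fold changes of 0.11 to 0.14, none of which passed. COX7C passed with the trend removed (0.21, adjusted p = 0.0339). COX8A had 22.1, 25.7 and 19.9 CPM in exosome libraries, against 25.3, 26.4 and 17.7 CPM in control libraries, with a log2 fold change of -0.03 (95% interval -0.33 to 0.26). COX8A fell by 0.54 once the trend was removed (adjusted p = 6.69e-04). Its GC content is 58.6%, in a class whose median log2 fold change was 0.36, and 34.5% of its exon bases lie in a second annotated gene.

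**Figure D3:**
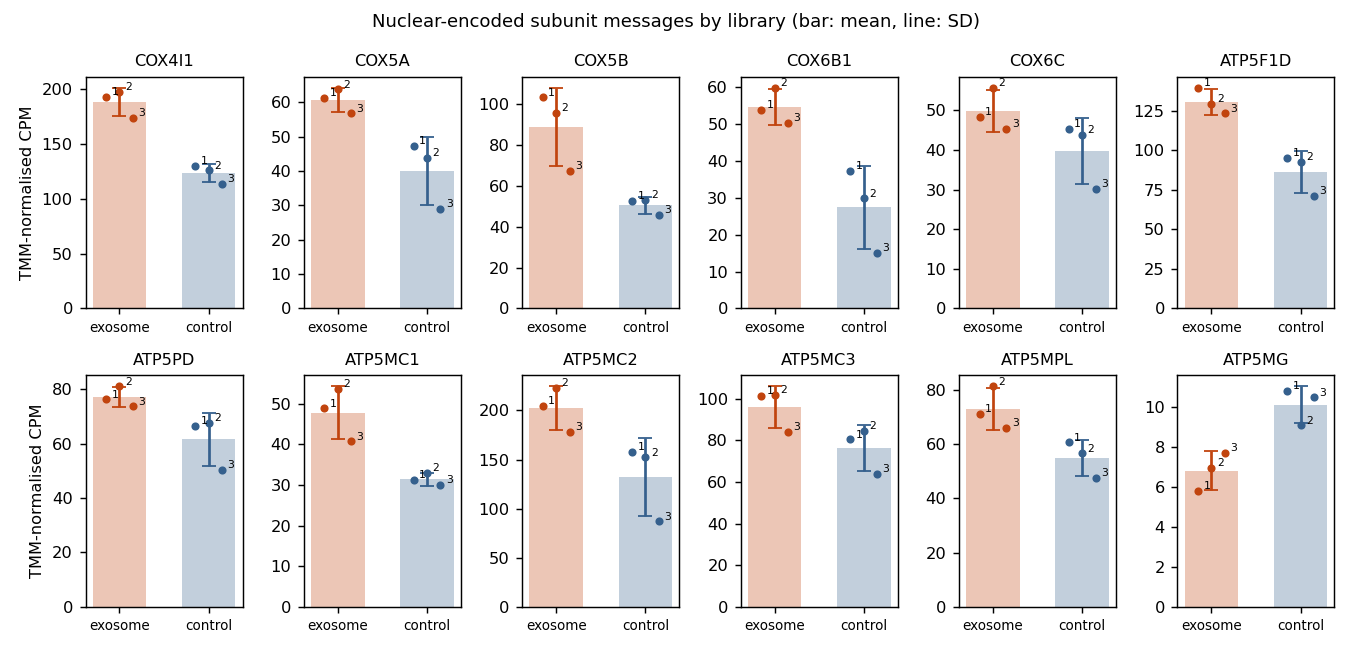
TMM-normalised CPM of 12 nuclear-encoded members in each library, exosome left of control; numbers mark the libraries, bars the mean and lines the SD (n = 3 each). Exosome libraries lie above all controls except in ATP5MC3, where exosome library 3 is level with control library 2, and in ATP5MG, where they lie below; in COX6C the margin is narrow.

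Of the nuclear-encoded ATP synthase subunits, 5 of 17 tested rose and 1 fell, a share higher near the 25.6% of all genes, with a median log2 fold change of 0.09. The 2 sectors of the enzyme differed in their medians, at 0.01 for F1 and the peripheral stalk and 0.32 for the membrane part, a difference that was not tested. With the trend removed these medians were 0.04 and 0.09.

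In F1, ATP5F1B, the catalytic beta subunit, had 1213, 1241 and 1192 CPM in exosome libraries, against 1187, 1173 and 1254 CPM in control libraries, a log2 fold change of 0.01 (95% interval -0.14 to 0.16). ATP5F1B was at -0.20 with the trend removed (adjusted p = 0.0240). ATP5F1A, the alpha subunit that alternates with beta around the head, had 349, 353 and 357 CPM in exosome libraries, against 387, 378 and 367 CPM in control libraries. Every exosome library lay below every control for ATP5F1A, but its log2 fold change of -0.10 did not pass (adjusted p = 0.278).

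The central stalk subunits did not share a direction. ATP5F1C, the gamma subunit at the centre of the rotor, had 104, 116 and 116 CPM in exosome libraries, against 124, 131 and 124 CPM in control libraries, and its log2 fold change of -0.17 did not pass (adjusted p = 0.0718). ATP5F1C fell by 0.25 in the fit with the trend removed (adjusted p = 0.00449). ATP5F1D, the delta subunit at the foot of the rotor, had 139, 129 and 123 CPM in exosome libraries, against 95.2, 92.5 and 70.9 CPM in control libraries. It rose by 0.60 (SE 0.10, adjusted p = 3.81e-05) with no overlap. The call ended with the trend removed (0.04, adjusted p = 0.642): ATP5F1D has 63.9% GC, in the class whose median log2 fold change was 0.49, and the part of GC content in its rise was not tested further. ATP5F1E, the epsilon subunit beside it, had a log2 fold change of 0.09 (adjusted p = 0.446) and, with the trend removed, rose by 0.38 (adjusted p = 0.0215).

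In the peripheral stalk ATP5PD, for subunit d, had 76.3, 81.0 and 73.7 CPM in exosome libraries, against 66.5, 67.8 and 50.4 CPM in control libraries, and rose by 0.32 (SE 0.10, adjusted p = 0.00977). The rise of ATP5PD did not pass without exosome library 2 (adjusted p = 0.0531). ATP5PB, for subunit b, ATP5PF, for coupling factor F6, and ATP5PO had log2 fold changes of -0.04, 0.19 and -0.31, and none passed. Exons of ATP5PF overlap those of GABPA on the opposite strand.

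The membrane part held the c ring, and here 3 genes encode 1 protein. ATP5MC1, ATP5MC2 and ATP5MC3 each carry their own import signal, but the last 77 codons before the stop translate alike in all 3. Over those 231 bases ATP5MC1 and ATP5MC2 are 88.3% identical, and ATP5MC3 is 80.1% identical to each. The last 75 coding bases, read from GENCODE 29 transcripts on GRCh38, show how the messages differ while the protein does not. Capitals mark the 21 positions at which the 3 genes are not all alike. ATP5MC1 lies at chr17:48895692-48895766 on the plus strand, ATP5MC2 at chr12:53665317-53665391 and ATP5MC3 at chr2:175178291-175178365, both on the minus strand.
ATP5MC1: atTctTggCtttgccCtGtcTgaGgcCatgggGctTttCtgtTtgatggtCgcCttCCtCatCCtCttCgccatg
ATP5MC2: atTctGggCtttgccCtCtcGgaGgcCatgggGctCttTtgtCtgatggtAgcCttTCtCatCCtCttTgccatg
ATP5MC3: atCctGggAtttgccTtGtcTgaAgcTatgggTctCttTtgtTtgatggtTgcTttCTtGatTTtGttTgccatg
The longest run identical between any pair in the whole coding sequence is 17 bases, so reads from coding bases can be told apart, although processed pseudogenes carry copies of some of them.

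All 3 genes had positive fold changes, and 2 passed. ATP5MC1 had 48.9, 53.7 and 40.7 CPM in exosome libraries, against 31.2, 33.0 and 29.9 CPM in control libraries, and rose 1.52-fold (log2 0.61, SE 0.11, adjusted p = 7.71e-05). The rise of ATP5MC1 held in every alternative run, with adjusted p up to 0.00146. ATP5MC2 had 205, 223 and 178 CPM in exosome libraries, against 158, 152 and 86.9 CPM in control libraries. Its groups did not overlap either, but with control library 3 far below the other controls its log2 fold change of 0.61 did not pass (SE 0.26, adjusted p = 0.109). Without that library ATP5MC2 rose by 0.40 (adjusted p = 1.99e-04).

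ATP5MC3 had 102, 102 and 84.3 CPM in exosome libraries, against 80.5, 84.6 and 63.7 CPM in control libraries. Exosome library 3 lay just below control library 2, and ATP5MC3 rose by 0.33 (SE 0.10, adjusted p = 0.0107). The call was lost without exosome library 1 or 2, with adjusted p up to 0.0565. Removing the trend raised the change of ATP5MC3 to 0.63 (adjusted p = 0.0126). Per length, ATP5MC2 gave 51.0% ± 0.600 of the summed subunit c FPKM in exosome libraries and 49.0% ± 6.78 in control libraries (SD, n = 3 each). ATP5MC1 gave 39.5% ± 0.700 in exosome libraries and 39.6% ± 6.27 in control libraries. The shares of these 2 genes overlapped between the groups, while that of ATP5MC3 was 9.57% ± 0.370 in exosome libraries and 11.4% ± 0.539 in control libraries, without overlap. These shares were not corrected for GC content. With the trend removed the log2 fold change of ATP5MC3 was no longer below those of ATP5MC1 (0.53) and ATP5MC2 (0.52, not passed).

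Around the ring, ATP5MPL, a small proteolipid that sits with subunit a, had 71.3, 81.4 and 66.2 CPM in exosome libraries, against 60.7, 56.7 and 47.5 CPM in control libraries, and rose by 0.41 (SE 0.10, adjusted p = 0.00181). ATP5MG, for subunit g, moved opposite to the membrane subunits that were called higher. It had 5.80, 6.95 and 7.70 CPM in exosome libraries, against 10.8, 9.08 and 10.5 CPM in control libraries, and fell by 0.57 (SE 0.17, adjusted p = 0.00672). This was the single nuclear-encoded member called lower. In the membrane part 5 log2 fold changes lay above 0 and 3 below, and 4 and 4 with the trend removed. ATP5MG is in the lowest GC class, whose median log2 fold change was -0.39, and fell by 0.48 with the trend removed (adjusted p = 0.0205). ATP5MG rested on 79 to 133 counts a library, shares exon bases with another gene on its strand, and did not pass without exosome library 1 (adjusted p = 0.0503). ATP5MD (DAPIT), ATP5ME and ATP5MF, for subunits that help pair 2 synthases or lie beside the ring, had log2 fold changes of -0.04, -0.05 and 0.31, and none passed.

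The matches that are not structural subunits did not pass. COX7A2L, a factor that joins cytochrome oxidase to complex III, had 96.8, 107 and 96.6 CPM in exosome libraries, against 106, 99.7 and 104 CPM in control libraries (log2 -0.04, adjusted p = 0.665). ATP5S, also called coupling factor B, had a log2 fold change of -0.25 (adjusted p = 0.111), and ATP5MGL was not tested.

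**Figure D4:**
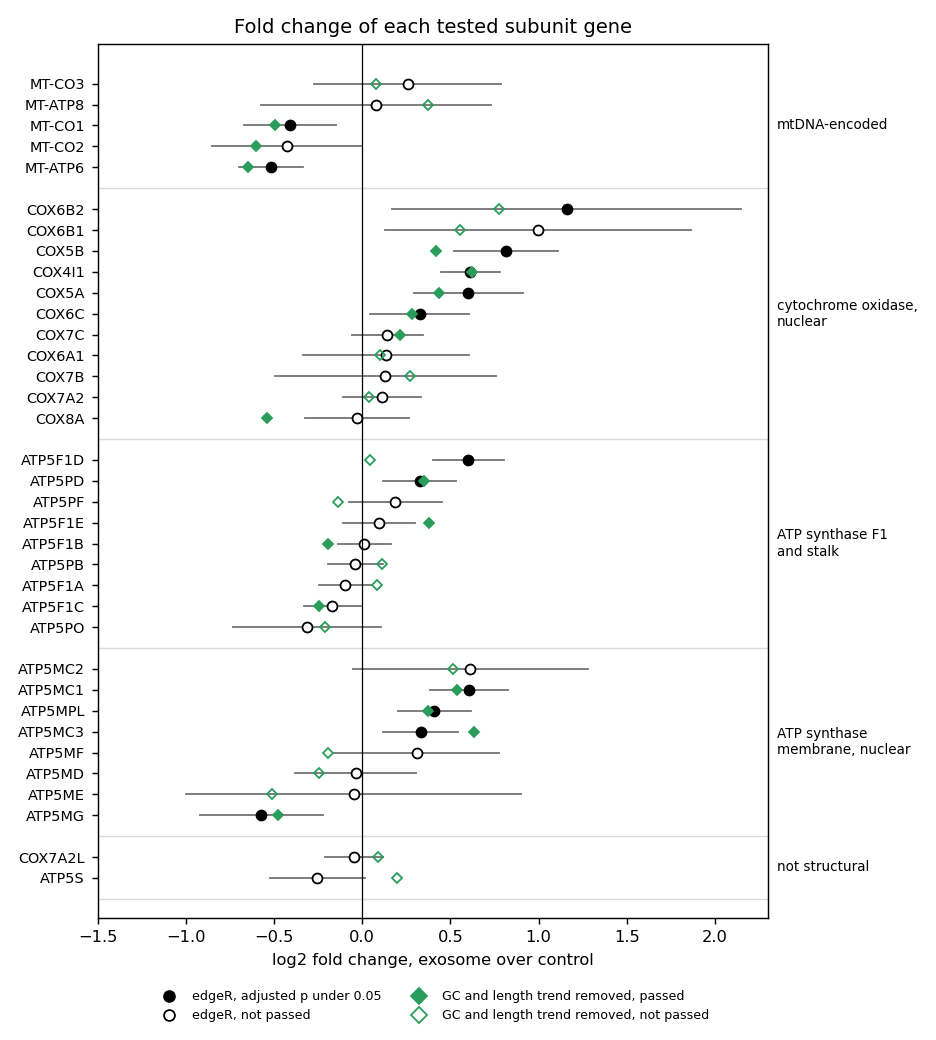
Log2 fold change (exosome over control) of the 35 tested members by role. Circles are the edgeR fit with its 95% interval, filled where the adjusted p was under 0.05, and diamonds are the fit with the GC and length trend removed, filled likewise; ATP5F1D and COX8A shift most between the fits.

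Promoters were read to see what sequence the nuclear-encoded members share. RefSeq promoters (GRCh38.p14, 250 bases before to 50 after the start) matched 24 of the 32 nuclear-encoded members. The motif CCGGAAG, the core bound by the ETS factor GABP, was searched on both strands and occurred in 11 of the 24 (45.8%), beside 10.3% of all 35116 promoters and 12.8% of those of protein-coding genes. The core of the site of nuclear respiratory factor 1, which reads GCGC, any 2 bases and GCGC again, occurred in 4 (16.7%), beside 8.32% of all promoters and 10.6% of those of protein-coding genes. No match of one overlapped a match of the other by these letters, and a match is not evidence of binding. CCGGAAG was in 3 of the 7 matched members that rose and in 8 of the other 17. The matched members that rose and had no CCGGAAG were ATP5MC1, ATP5MPL, COX5A and COX6B2.

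Shown are the promoters of COX4I1 and COX5B, the members with the smallest adjusted p in cytochrome oxidase. COX6B1 is shown for the largest fold change among members above 1 FPKM, although it did not pass. All of these hold CCGGAAG, so they do not stand for the members that rose. The promoters lie at chr16:85799445-85799744, chr2:97645812-97646111 and chr19:35648073-35648372, all on the plus strand, with CCGGAAG or its reverse complement in capitals.
COX4I1 promoter: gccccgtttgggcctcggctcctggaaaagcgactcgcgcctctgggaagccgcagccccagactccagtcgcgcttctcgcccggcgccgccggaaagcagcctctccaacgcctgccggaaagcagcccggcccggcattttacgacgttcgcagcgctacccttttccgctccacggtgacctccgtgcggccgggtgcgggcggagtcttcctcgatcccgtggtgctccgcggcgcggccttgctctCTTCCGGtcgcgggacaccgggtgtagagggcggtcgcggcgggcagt
COX5B promoter: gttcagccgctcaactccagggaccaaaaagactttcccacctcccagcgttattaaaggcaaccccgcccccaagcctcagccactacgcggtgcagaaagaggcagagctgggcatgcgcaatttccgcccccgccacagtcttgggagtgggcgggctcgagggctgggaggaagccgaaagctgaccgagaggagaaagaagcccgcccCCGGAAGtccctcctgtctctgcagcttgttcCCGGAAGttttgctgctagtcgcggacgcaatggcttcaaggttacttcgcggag
COX6B1 promoter: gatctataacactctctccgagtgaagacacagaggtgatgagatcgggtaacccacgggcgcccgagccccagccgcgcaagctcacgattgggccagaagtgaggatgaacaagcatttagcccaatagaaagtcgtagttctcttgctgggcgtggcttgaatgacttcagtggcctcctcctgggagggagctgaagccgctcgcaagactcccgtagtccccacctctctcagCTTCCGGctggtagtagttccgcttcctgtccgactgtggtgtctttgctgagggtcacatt
The match begins 2 bases after the start site in COX4I1, 37 and 5 bases before it in COX5B, and 12 bases before it in COX6B1.

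Of the listed regulators of nuclear respiratory genes, 3 of 9 tested rose and 1 fell, beside 25.6% and 26.1% of all genes. GABPA, the DNA-binding subunit of GABP, had 40.4, 40.4 and 41.4 CPM in exosome libraries, against 62.9, 63.4 and 68.7 CPM in control libraries, and fell by 0.67 (SE 0.09, adjusted p = 3.19e-06). GABPA fell by 0.28 with the trend removed (adjusted p = 0.00584). MYC rose by 0.57, the receptor ESRRA by 0.46 and the coactivator PPRC1 by 0.24. With the trend removed ESRRA was at -0.04 and PPRC1 at 0.08, and neither passed.

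Of the cytochrome oxidase assembly and copper delivery genes, 10 of 26 tested rose and 3 fell, beside 25.6% and 26.1% of all genes, with a median log2 fold change of 0.21. With the GC and length trend removed 9 rose and 4 fell, beside 18.2% and 17.3% of all genes, with a median of 0.12. SCO2 then changed direction, from 0.31 to -0.33 (adjusted p = 0.0409), and COX14, TMEM177 and HIGD2A lost their calls. COX17, which carries copper to the complex, had 12.3, 11 and 8.52 CPM in exosome libraries, against 4.90, 6.81 and 4.41 CPM in control libraries, and rose by 0.99 (SE 0.19, adjusted p = 2.18e-04). COA4 and COA6, small proteins of the same copper route, rose by 0.70 and 0.50. TACO1, a translational activator of MT-CO1, rose by 0.50, while MT-CO1 itself fell.

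Of the complex III and cytochrome c genes, 8 of 14 tested rose and 1 fell, beside 25.6% and 26.1% of all genes. Their median log2 fold change was 0.55, and 0.33 with the GC and length trend removed. BCS1L, which inserts the iron-sulfur protein, rose by 0.71, the assembly factor UQCC2 by 0.90, the hinge protein gene UQCRH by 0.62 and CYC1, for cytochrome c1, by 0.54. With the trend removed CYC1 was at -0.03 and did not pass (adjusted p = 0.776). For ATP synthase assembly and inhibition, 1 of 6 tested genes rose and 0 fell, a share higher below the 25.6% of all genes. It was ATPAF2, which helps the F1 alpha subunit fold (log2 0.39, adjusted p = 0.00585). It did not pass with the trend removed (adjusted p = 0.174).

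Of the genes that copy mtDNA and handle its RNA, 7 of 22 tested rose and 5 fell, near the 25.6% and 26.1% of all genes. With the GC and length trend removed 5 rose and 1 fell, beside 18.2% and 17.3%. LRPPRC, which keeps mtDNA-encoded messages stable, had 528, 556 and 621 CPM in exosome libraries, against 774, 794 and 925 CPM in control libraries, and fell by 0.55 (SE 0.08, adjusted p = 1.81e-05). LRPPRC fell by 0.27 with the trend removed (adjusted p = 0.00188). POLRMT, the mitochondrial RNA polymerase, rose by 0.41 and the helicase TWNK by 0.38, and the RNA-binding FASTKD2 fell by 0.40. With the trend removed POLRMT was at -0.06 and FASTKD2 at -0.02, and neither passed. Among 8 genes of ADP, phosphate and ATP exchange, 3 rose and 1 fell, beside 25.6% and 26.1% of all genes. SLC25A4, an ADP/ATP carrier, rose by 0.32, the outer membrane channel VDAC1 by 0.20 and the creatine kinase CKMT1B by 0.67, and VDAC2 fell by 0.35. VDAC1 (0.14, adjusted p = 0.0615) and CKMT1B (0.54, adjusted p = 0.121) did not pass with the trend removed. Then 2 of the 8 rose and 2 fell, and without control library 3, 1 rose and 1 fell. CKMT1B has a near-identical copy, CKMT1A, so its counts are uncertain.

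**Figure D5:**
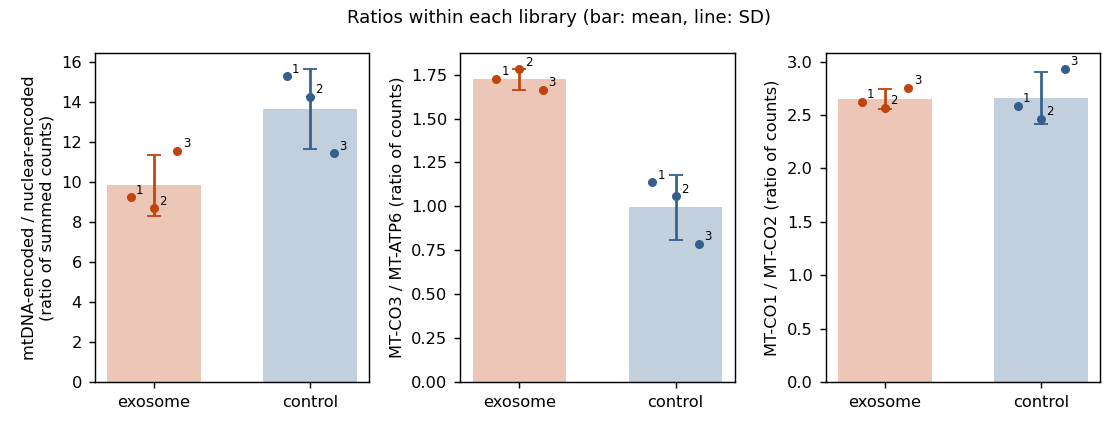
Ratios within each library, exosome left of control: summed mtDNA-encoded over summed nuclear-encoded members, MT-CO3 over MT-ATP6 and MT-CO1 over MT-CO2; numbers mark the libraries, bars the mean and lines the SD (n = 3 each). MT-CO3 over MT-ATP6 separates the groups at 1.66 to 1.78 in exosome libraries and 0.788 to 1.14 in control libraries, and the other ratios overlap.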

How the data were processed

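Per the labels' protocols, RNA was taken up in Trizol, and NEBNext Ultra reagents were used for the 6 libraries. Alignment with STAR to GRCh38 (hg38) is named by the submitters' processing notes; the sources used here do not give the counting program, its annotation or its use of strand. The deposited table has 15761 gene symbols. Per the file headers it holds the authors' read counts per gene, a signal made by the authors as counts over 1 size factor a library, and the authors' FPKM. The deposited log2 fold changes and p-values of the authors, whose tool is not stated, were not used.

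Titles gave each sample's group and number. The tests used edgeR 4.0.16 under R 4.3.3 on the counts (filterByExpr, TMM, robust quasi-likelihood fit, group only), with Benjamini-Hochberg adjustment over 12449 genes and a threshold of 0.05. CPM here includes the TMM factor; the totals put 1 CPM at 11.3 to 13.3 reads. GC content and length came from the longest GENCODE 29 transcript of each gene, which for some members is not the main one; their trend in each library (loess, span 0.3) entered edgeR as an offset in the corrected fit. Counts were also simulated for 12449 genes, some of them set to change, and 5 of the unchanged genes were called. The simulation had the same spread for every gene, no GC trend and no library that stood apart. It therefore cannot give the rate of false calls in these data. Positions are counted from 1 on GRCh38.

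All members are accounted for. Full values are given for mtDNA-encoded members, the 3 smallest adjusted p in each direction and role, isoforms, and members that went against their class or changed call with the correction; of each other list the 4 with the smallest adjusted p were named if they passed. The members and lists were chosen with earlier results of these data known. Alternatives were RLE size factors, library totals, scaling without mtDNA-encoded rows, other filters, DESeq2 1.42.0, limma-voom 3.58.1, an adjusted p under 0.01, the replicate number as a block, and each library left out in turn. Leaving out control library 3 together with the GC correction was chosen after seeing the data. Protein sequences were not used; isoforms were compared by coding sequence.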

Additional observations from a re-analysis of the deposited data

How the results depend on the processing

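The counts of members called were small and moved with single libraries. Leaving out 1 library at a time gave 3 to 5 nuclear-encoded cytochrome oxidase genes called higher and 0 to 1 lower, 3 to 6 nuclear-encoded ATP synthase genes higher and 0 to 2 lower, and 0 to 1 mtDNA-encoded genes higher and 1 to 3 lower; these ranges include control library 3 left out with the GC and length trend removed. The higher mtDNA-encoded call was MT-CO3 without control library 1 (adjusted p = 0.0200). At an adjusted p under 0.01, 3 cytochrome oxidase genes were higher and 1 mtDNA-encoded gene lower. With the GC and length trend removed, 2148 of all genes were lower (2044 also without control library 3), 1 cytochrome oxidase gene was lower, and 3 ATP synthase genes were lower. The cause of these shifts was not tested.

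To look for pairs, the deviation of each library's log2 CPM from its group's gene means was correlated between exosome and control libraries. For libraries of the same replicate number the correlation of these deviations was low (0.0664, 0.103 and 0.206 for numbers 1, 2 and 3). By this measure each library still correlated best with its own number, for exosome library 1 only narrowly (0.0659 with control library 2). Whether the numbers mark pairs is not known. With the replicate block, 3444 genes were higher and 3525 lower, 2 ATP synthase genes and 1 mtDNA-encoded gene were lower; with the block and the trend removed, 1 cytochrome oxidase gene, 4 ATP synthase genes and 1 mtDNA-encoded gene were lower. Under the block the edgeR adjusted p was 0.186 for MT-CO1, 0.161 for MT-ND4 and 0.256 for MT-ND2, so these calls were lost. MT-ND4L, MT-ND5 and MT-ND6 kept theirs.

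Log2 fold changes changed sign 42 times, all but that of ATP5F1D in members not called. With the trend removed, with the block and the trend, and with the trend removed and control library 3 left out, the values were 0.0838, 0.0844 and 0.0502 for ATP5F1A, -0.20, -0.19 and -0.12 for ATP5F1B, -0.19, -0.19 and -0.37 for ATP5MF, 0.11, 0.11 and 0.13 for ATP5PB, -0.14, -0.14 and -0.19 for ATP5PF, 0.20, 0.20 and 0.31 for ATP5S, and 0.0883, 0.0870 and 0.10 for COX7A2L. The last of these settings also gave -0.0034 for ATP5F1D, -0.0787 for COX6A1 and -0.0753 for MT-CO3. Library totals gave 0.0468 for ATP5MD, 0.0344 for ATP5ME, 0.0425 for ATP5PB, 0.0382 for COX7A2L and 0.0527 for COX8A. Leaving out 1 library at a time gave -0.0019 to 0.0566 for ATP5F1B, -0.0005 to 0.17 for ATP5F1E, -0.18 to 0.14 for ATP5MD, -0.27 to 0.27 for ATP5ME, -0.0890 to 0.30 for COX6A1, -0.0968 to 0.28 for COX7B, -0.18 to 0.0838 for COX8A and -0.13 to 0.27 for MT-ATP8. Low counts limit MT-ATP8, ATP5ME, COX6B2, COX7A1 and ATP5MGL. For MT-ATP8, ATP5ME and COX6B2, which share bases with other genes, the part of read assignment in the low counts was not tested.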
